A study of Mus musculus with 20 samples.

Results

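The comparison described here set hippocampus of SMRT-KO mice against hippocampus of control mice, 3 against 4 of the 20 libraries in the series. The libraries were chosen by tissue and genotype as labelled, and all came from mice at postnatal day 21. The series crossed the pan-neuronal driver Snap25-IRES2-cre to floxed alleles, of SMRT in SMRT-KO and of NCoR1 in NCoR1-KO, and sequenced hippocampus and amygdala. Hippocampus also had 3 NCoR1-KO libraries, which here share the estimate of the spread and give values to set beside those of SMRT-KO. The labels do not say whether control mice carried Cre or floxed alleles, and the Cre sits in the Snap25 locus itself, so the driver and the loss of SMRT cannot be told apart from these groups alone. Nor do they say that libraries of a group came from separate animals, so a p-value here measures only how these libraries vary, and that variation may be technical.

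SMRT and NCoR1 are related corepressors. They bind nuclear receptors such as those for thyroid hormone and retinoic acid, mostly when the receptor has no activating ligand, and they hold histone deacetylase 3 in a complex with TBL1-family proteins that removes acetyl groups from nearby histones. Genes repressed in this way can be released when the ligand arrives or the corepressor is lost. In the postnatal forebrain, thyroid hormone is known for its part in myelination, in the maturation of parvalbumin interneurons and in the growth of axons and their neurofilaments.

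Values were TPM (transcript abundance per library total), which scales each library for transcript length and for its total. Tests covered the 14501 of 23412 symbols with 1 TPM or more in 3 or more of the 10 hippocampus libraries of any genotype. Differences are of log2(TPM + 1), SMRT-KO minus control, with the standard error (SE) of a limma fit to all 10 libraries, and they understate the change of genes of low expression. TPM values do not carry the read depth, so depth is unknown and counting error cannot be stated. The number of genes at 1 TPM or more ran from 13787 to 14391 over the hippocampus libraries.

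The 7 libraries differed in their levels of tissue markers, in part within the genotypes and in part between them. A library's score for a marker list is the median, over the list, of the log2 deviation from the mean of the 10 libraries. SMRT-KO 2 scored 2.46 on 13 thalamus markers, against -0.60 to 0.04 in the other 6 libraries. Its thalamic transcription factor Tcf7l2 was at 124 TPM against 8.33 to 11.7 TPM in the other 6. The same library scored 0.88 on 18 oligodendrocyte markers and 1.59 on 14 choroid plexus and ependyma markers. SMRT-KO 3 lay at the other end, with -0.62 for oligodendrocytes, -1.75 for choroid plexus and ependyma and -0.61 for the dentate gyrus. Its level of Prox1, the granule cell transcription factor, was 19.6 TPM, and the other 6 libraries lay between 46.9 and 84.3 TPM. Control 2 scored 1.10 on 12 striatum markers, with the other 6 between -0.30 and 0.02. Control 1 stood highest on 27 interferon response genes, at 0.65 against -0.45 to 0.13. For 2 of the region lists the SMRT-KO scores lay below all control scores. On 17 markers of cortex layers they were -0.12, -0.29 and -0.31 in SMRT-KO 1 to 3, against -0.07 to 0.24 in controls. Of those 17 genes 14 lay below control, with a median of -0.30, and 4 were at an unadjusted p under 0.05, all lower. On the 4 tested hypothalamus markers the scores were -0.22 to -0.16 in SMRT-KO and -0.05 to 0.86 in controls. The part of neighbouring tissue in the differences below was not tested. Scores for 17 markers of the CA fields, parts of the hippocampus itself, ran from -0.16 to 0.23 over the 7 libraries. A score is relative to the mean of the 10 libraries and does not give the level of the markers. In bulk tissue, fewer cells of a type and less RNA per cell cannot be told apart.

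**Figure D1:**
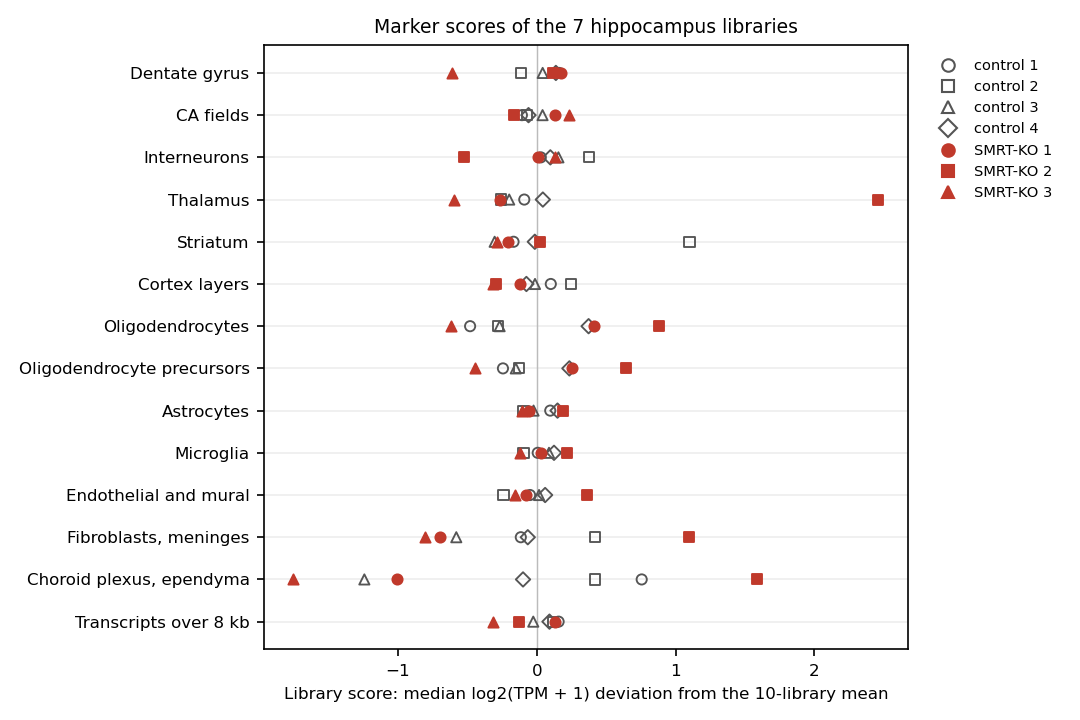
Score of each of the 7 hippocampus libraries (open grey symbols, 4 controls; filled red symbols, 3 SMRT-KO) for 13 marker lists and for transcripts longer than 8 kb; a score is the median log2(TPM + 1) deviation of the list's genes from the mean of the 10 hippocampus libraries. SMRT-KO 2 stands apart for thalamus at 2.46, control 2 for striatum at 1.10, and SMRT-KO 3 lies lowest for dentate gyrus at -0.61.

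No gene passed the threshold in the comparison of SMRT-KO with control. Of 14501 genes, 0 (0%) had a limma adjusted p under 0.05, and the smallest adjusted p was 0.779. At an unadjusted p under 0.05 there were 813 genes, 309 higher (2.13%) and 504 lower (3.48%) in SMRT-KO. The mean lay above control for 44% of all genes and below it for 56%, with a median difference of -0.02. Every SMRT-KO library lay above every control for 300 genes (2.07%) and below every control for 393 genes (2.71%). These shares are the background for each count below. Single libraries moved them. The genes at an unadjusted p under 0.05 were 382 higher and 1248 lower without SMRT-KO 1, 533 and 632 without SMRT-KO 2, 873 and 338 without SMRT-KO 3, and 169 and 320 without control 1. Scaling moved the split as well, to 462 higher and 410 lower after quantile normalization, to 464 and 396 after median-of-ratios rescaling and to 215 and 741 when Rn45s was left out of the total. Differences near 0 therefore have a direction only for a given scaling. In this comparison and its main fit, the genes named below, Snap25 among them, had an adjusted p of 0.779 or more. Their values are given as differences that did not pass. Snap25 passed only under alternatives given with it.

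**Figure D2:**
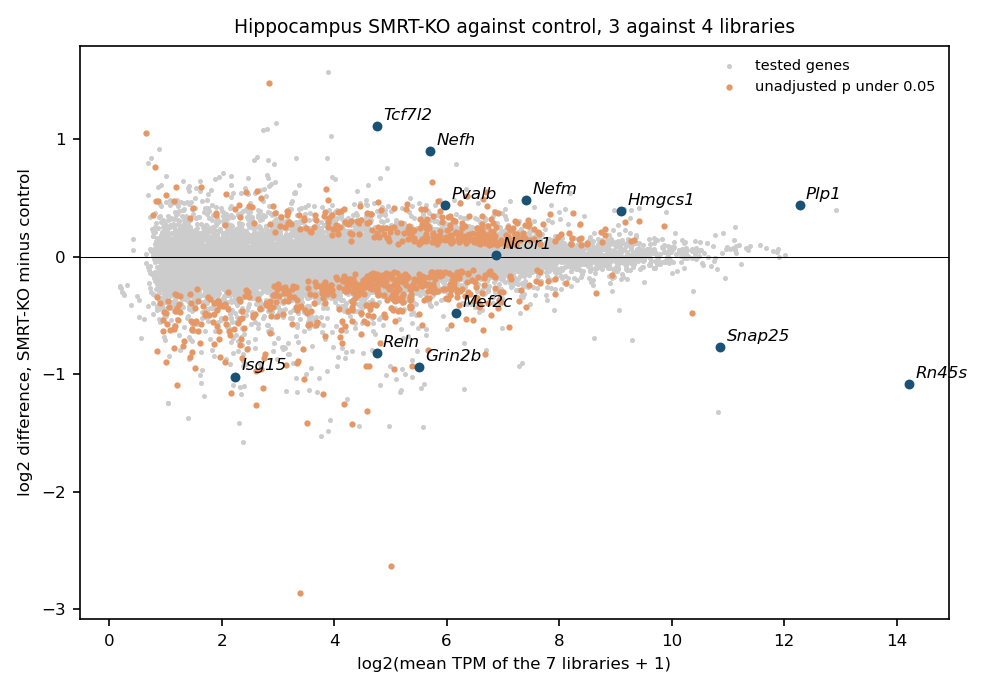
Difference in log2(TPM + 1), SMRT-KO minus control, of the 14501 tested genes against log2 of their mean TPM over the 7 libraries plus 1. Orange points are the 813 genes at an unadjusted p under 0.05, none of which passed after adjustment; blue points are named genes, with Snap25 at -0.77, Nefh at 0.90 and Ncor1 at 0.02.

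Snap25 encodes a SNARE protein that drives fusion of synaptic vesicles, and its locus carries the Cre driver (chromosome 2, 136713453 to 136782428, plus strand, GRCm38). Its level was 2236, 2204, 2329 and 2249 TPM in controls 1 to 4 and 1247, 1090 and 1699 TPM in SMRT-KO 1 to 3. All 3 SMRT-KO libraries lay below all 4 controls, and SMRT-KO 3 lay nearest to them. The mean was 59.7% of control, with a log2 difference of -0.77 ± 0.12 (SE) and the smallest unadjusted p of the comparison. A two-sided exact permutation test gave p = 0.0286, the smallest that 35 arrangements allow. Without SMRT-KO 3 the difference was -0.95 and was the only call among all genes (limma's adjusted p = 0.00249). It was also called after quantile normalization (adjusted p = 0.0266) and with libraries weighted for quality (adjusted p = 0.00176). Beside it, NCoR1-KO, which carries the same driver and shares the controls, differed from control by -0.80 ± 0.12, and SMRT-KO differed from NCoR1-KO by 0.03 ± 0.13.

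The list of the vesicle release machinery holds 26 genes, Snap25 among them. Of these, 16 lay above control and 10 below, with a median of 0.02. That balance rested on single libraries: the median was -0.07 (5 above and 21 below) without SMRT-KO 3 and 0.12 (17 above and 9 below) without SMRT-KO 2. Vamp1, a vesicle SNARE of fast-firing neurons, was at 91.3, 84.2, 94.2 and 90.1 TPM in controls 1 to 4 and at 96.4, 149 and 126 TPM in SMRT-KO 1 to 3, a difference of 0.44 ± 0.13. Syt2, a fast calcium sensor for release, was at 10.3 to 13.2 TPM in controls and at 14.2, 17.1 and 15.2 TPM in SMRT-KO, a difference of 0.38 ± 0.12. Neither gene's libraries overlapped between the groups, although SMRT-KO 1 was only just above the highest control for Vamp1. With a library left out, the Vamp1 difference ran from 0.29 to 0.60. Cplx1, a complexin that clamps and times fusion, differed by 0.29 ± 0.12, with SMRT-KO 1 inside the control range, and by 0.17 without SMRT-KO 3. Sv2c, a vesicle protein rich in basal ganglia, was at 6.02 to 19.5 TPM in controls and 3.44 to 7.13 TPM in SMRT-KO (difference -0.89 ± 0.33), and its highest library was control 2, the library of high striatum score. Common release genes were near 0, with Syt1 at 0.06 and Vamp2 at -0.01.

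Ncor1, the related corepressor, was at 81.6, 119, 129 and 137 TPM in controls 1 to 4 and at 143, 108 and 101 TPM in SMRT-KO 1 to 3. The groups overlapped, with a difference of 0.02 ± 0.20 (two-sided exact permutation p = 0.914). Control 1 was the lowest of the 7 libraries, and without it the difference was -0.14. Other parts of the complex were near control. Hdac3, its deacetylase, was at 110 to 124 TPM in controls and 110 to 119 TPM in SMRT-KO, a difference of -0.01 ± 0.06. Tbl1xr1, which exchanges corepressors for coactivators, differed by -0.05 ± 0.09. Gps2, a small subunit that tethers receptors, was at 23.1 to 27.7 TPM in controls and at 20.3, 25.1 and 20.9 TPM in SMRT-KO (difference -0.21 ± 0.10), with SMRT-KO 2 inside the control range. Of the 17 genes of the complex and its partners, 6 lay above control and 11 below, with a median of -0.05 against -0.02 over all genes (-0.13 without SMRT-KO 1 and -0.03 without SMRT-KO 2). The only one at an unadjusted p under 0.05 was Sin3b, a scaffold of a separate deacetylase complex, at 109 to 120 TPM in controls and 103 to 105 TPM in SMRT-KO (difference -0.12 ± 0.05).

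Nuclear receptors, the partners of SMRT, showed little displacement. Of 33 tested, 13 lay above control and 20 below, with a median of -0.02. Without control 2 there were 19 above and 14 below, with a median of 0.01. Esrrg, an orphan receptor of oxidative neurons, was at 11.9 to 13.03 TPM in controls and at 13.8, 18.8 and 14.4 TPM in SMRT-KO, a difference of 0.30 ± 0.12 with no overlap. Without SMRT-KO 2, its highest library, the difference was 0.17. Thrb, the beta receptor for thyroid hormone, differed by -0.21 ± 0.10 (-0.11 without SMRT-KO 2) and its libraries overlapped. Thra, the alpha receptor, was at 533 to 705 TPM in controls and 472 to 660 TPM in SMRT-KO, a difference of -0.11 ± 0.13.

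Genes induced by thyroid hormone in brain did not share a direction. Of 22, 13 lay above control and 9 below, with a median of 0.11, which was 0.01 without SMRT-KO 2. At an unadjusted p under 0.05 were 4 higher (Nefm, Nefh, Pvalb and Me1) and 1 lower (Reln), against 2.13% and 3.48% of all genes. The same members had no overlap between the groups, against 2.07% of all genes higher and 2.71% lower. Klf9, a direct target of the hormone receptor, was at 182 to 200 TPM in controls and at 191, 189 and 195 TPM in SMRT-KO, a difference of 0.00 ± 0.05. SMRT-KO lay within the controls for that gene. Hr, another direct target and itself a corepressor, was at 12.7 to 17.8 TPM in controls and at 17.3, 31.1 and 10.7 TPM in SMRT-KO (difference 0.34 ± 0.28), so its highest and lowest libraries were both SMRT-KO. Me1, the malic enzyme that supplies NADPH for lipid synthesis, was at 80.7 to 88.7 TPM in controls and at 90.4, 99.1 and 116 TPM in SMRT-KO, a difference of 0.24 ± 0.08 with no overlap, which was 0.15 without SMRT-KO 3. The members ran from -0.87 to 0.90, with the neurofilament gene Nefh at the top and the deiodinase Dio3 at the bottom (-0.87 ± 0.54).

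Of the 4 neurofilament genes described here, 3 had every SMRT-KO library above every control, though none passed the test. Neurofilament proteins form the intermediate filaments of large axons and set axon calibre. Nefm, the medium subunit, had the smallest unadjusted p among genes above control. It was at 141, 136, 144 and 157 TPM in controls 1 to 4 and at 177, 231 and 201 TPM in SMRT-KO 1 to 3, which is 140% of control and a difference of 0.48 ± 0.08. Nefh, the heavy subunit, was at 33.5, 34.7, 34.7 and 40.6 TPM in controls and at 48.4, 110 and 58.4 TPM in SMRT-KO, a difference of 0.90 ± 0.22. Its SMRT-KO 2 value was the highest of all and belongs to the library with thalamus markers, and without that library the difference was 0.56. Ina, alpha-internexin, was at 132 to 148 TPM in controls and at 148, 174 and 157 TPM in SMRT-KO, a difference of 0.19 ± 0.06. For these 3 genes no SMRT-KO library reached down to a control. Nefl, the light subunit, was at 437 to 484 TPM in controls and at 529, 447 and 664 TPM in SMRT-KO (difference 0.23 ± 0.11), with SMRT-KO 2 inside the control range. Without SMRT-KO 3 its difference was 0.08. Exons of Nefm and Nefl overlap on opposite strands (chromosome 14), and the sources used here do not say whether counting used strand. Of the 12 genes of the neurofilament and cytoskeleton list, 7 lay above control and 5 below, with a median of 0.06, and without SMRT-KO 3 there were 6 of each with a median of -0.0023. Map1b, Map2 and Gap43, genes of growing neurites, were at -0.18, -0.10 and -0.11.

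Several single genes named for a small p or a large difference above control are known from fast-spiking neurons. They were picked by those values and form no fixed list. Pvalb, a calcium buffer of parvalbumin interneurons, was at 56.9, 44.0, 55.4 and 57.3 TPM in controls 1 to 4 and at 65.2, 67.7 and 85.8 TPM in SMRT-KO 1 to 3, a difference of 0.44 ± 0.12. Kcng4, a modifier subunit of Kv2 potassium channels, was at 4.87 to 6.77 TPM in controls and at 7.52, 7.83 and 8.19 TPM in SMRT-KO, a difference of 0.43 ± 0.11. Hapln4, a link protein of perineuronal nets, was at 35.1 to 49.9 TPM in controls and at 50.9, 61.7 and 87.0 TPM in SMRT-KO, a difference of 0.63 ± 0.18. None of the 3 overlapped between the groups, although SMRT-KO 1 was only just above the highest control for Hapln4. Cacng2, the AMPA receptor auxiliary protein stargazin, differed by 0.33 ± 0.09, also with no overlap. Kcnc2, a fast delayed-rectifier potassium channel, differed by 0.34 ± 0.14 with SMRT-KO 1 inside the control range, and by 0.20 without SMRT-KO 2. Kcnc4, of the same channel family, differed in the other direction, by -0.46 ± 0.14. Of the 37 potassium channel genes tested, 16 lay above control and 21 below, with a median of -0.02.

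Most genes of the interneuron list lay below control. Of 17, 2 were above and 15 below, with a median of -0.26 against -0.02 over all genes, and the genes above were Pvalb and Cck. The list had a median of -0.33 in NCoR1-KO against the same controls, also with 2 of 17 above. Cck, a peptide made by a class of basket cells and by pyramidal cells, was at 558 to 698 TPM in controls and at 749, 694 and 856 TPM in SMRT-KO, a difference of 0.30 ± 0.09 with SMRT-KO 2 just inside the control range. Gad2, a GABA-synthesising enzyme, was at 105, 151, 112 and 132 TPM in controls 1 to 4 and at 95.2, 73.6 and 96.3 TPM in SMRT-KO 1 to 3, a difference of -0.49 ± 0.15. All SMRT-KO libraries lay below all controls. NCoR1-KO, against the same controls, was at -0.51 ± 0.15. Reln, an extracellular protein secreted by interneurons and Cajal-Retzius cells, was at 37.6, 34.2, 29.2 and 26.8 TPM in controls 1 to 4 and at 24.9, 14.5 and 14.9 TPM in SMRT-KO 1 to 3, a difference of -0.82 ± 0.25 with no overlap. Sst, somatostatin, was at 407 to 736 TPM in controls and at 446, 328 and 555 TPM in SMRT-KO (difference -0.45 ± 0.23), so the groups overlapped. SMRT-KO 2 had the lowest interneuron score at -0.52 and control 2 the highest at 0.38. The median was -0.17 without SMRT-KO 2 and -0.39 without SMRT-KO 3. Without SMRT-KO 2, control 1 and control 2 it was -0.05, with 8 genes above control and 9 below.

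Neuropeptide genes, a list that shares several members with the interneuron list, lay mostly below control too. Of 19, 3 lay above control and 16 below, with a median of -0.45. In NCoR1-KO, against the same controls, the median was -0.33 with 2 of 19 above. Nts, neurotensin, was at 16.4, 17.0, 10.96 and 11.7 TPM in controls 1 to 4 and at 7.68, 7.96 and 1.17 TPM in SMRT-KO 1 to 3, a difference of -1.42 ± 0.47 that was -0.74 without SMRT-KO 3. Tac1, the substance P precursor, was at 14.5, 54.1, 16.7 and 10.01 TPM in controls and at 6.14, 6.0 and 11.3 TPM in SMRT-KO (difference -1.25 ± 0.47). Control 2 held the highest Tac1 level, and without it the difference was -0.77. For the list as a whole the median was -0.29 without control 2 and -0.06 (9 above and 10 below) when SMRT-KO 2, control 1 and control 2 were all left out. The processing enzymes of peptide precursors split. Pcsk2, a prohormone convertase, was at 188 to 197 TPM in controls and at 216, 249 and 235 TPM in SMRT-KO, a difference of 0.28 ± 0.06. Pcsk1, the other neuronal convertase, was at 15.0 to 27.2 TPM in controls and at 14.5, 9.20 and 15.0 TPM in SMRT-KO, a difference of -0.55 ± 0.22 that was -0.34 without SMRT-KO 2. Both had no overlap between the groups, in opposite directions.

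**Figure D3:**
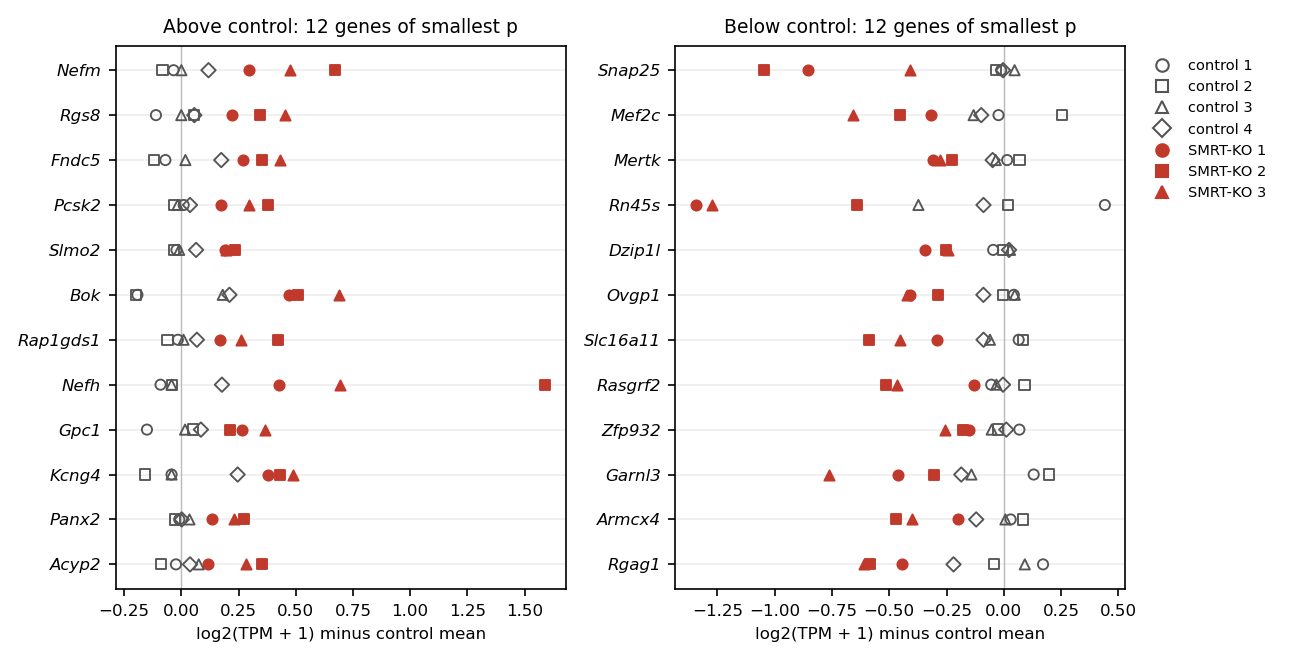
Deviation of log2(TPM + 1) from the control mean in each of the 7 libraries for the 12 genes of smallest unadjusted p above control (left) and the 12 below control (right); open grey symbols are the 4 controls and filled red symbols the 3 SMRT-KO libraries. SMRT-KO symbols lie to the outer side of every control for each gene, Nefh spreads widest among the genes above control, and none of the 24 genes passed after adjustment.

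The 12 genes of smallest p above control held, beside Nefm, Nefh, Pcsk2 and Kcng4, several genes of signalling and mitochondria. Rgs8, which shortens G protein signals, was at 49.3 to 55.5 TPM in controls and at 62.4, 67.9 and 73.4 TPM in SMRT-KO, a difference of 0.34 ± 0.07. Bok, a member of the BCL2 family, was at 74.2, 73.9, 96.3 and 98.4 TPM in controls 1 to 4 and at 118, 121 and 138 TPM in SMRT-KO 1 to 3, a difference of 0.56 ± 0.12. Fndc5, the precursor of irisin, was at 80.3 to 98.7 TPM in controls and at 105, 112 and 118 TPM in SMRT-KO, a difference of 0.35 ± 0.07. In each case the SMRT-KO libraries lay above all controls. Rap1gds1, a chaperone of small GTPases, differed by 0.28 ± 0.06, the glypican Gpc1 by 0.28 ± 0.07, Slmo2, of a mitochondrial protein family, by 0.21 ± 0.04, the pannexin channel gene Panx2 by 0.21 ± 0.06 and Acyp2, an acylphosphatase, by 0.25 ± 0.07. By size, the largest non-overlapping differences above control were those of Nefh, Hapln4, Acbd7 and Ugt1a6b. Acbd7 was at only 0.67 to 1.00 TPM in controls and at 1.31, 2.65 and 1.55 TPM in SMRT-KO. Ugt1a6b shares exons with the other Ugt1a genes, was listed at 0 in control 3, and is uncertain.

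Among the 12 genes of smallest p below control, Mef2c followed Snap25. It encodes a transcription factor that shapes synapse number in forebrain neurons (chromosome 13, 83504034 to 83667080, plus strand). Its level was 78.9, 95.8, 73.1 and 74.8 TPM in controls 1 to 4 and 64.2, 58.4 and 50.4 TPM in SMRT-KO 1 to 3, a difference of -0.48 ± 0.10. All SMRT-KO libraries lay below all controls. In a list of 20 Mef2, activity-dependent and forebrain transcription factors, 1 lay above control (Neurod6) and 19 below, with a median of -0.12. Tbr1, a member of this list, also belongs to the markers of cortex layers, whose score was lower in every SMRT-KO library than in every control. Rasgrf2, given below, belongs to those markers and not to the list of factors. Without SMRT-KO 2 the same list of factors had 8 above and 12 below and a median of -0.04. Tbr1, a factor of glutamatergic neurons, differed by -0.29 ± 0.11 and Mef2d by -0.17 ± 0.07, each with 1 or more SMRT-KO libraries inside the control range. The scores of the list of factors were 0.01 to 0.02 in controls and 0.06, -0.28 and -0.06 in SMRT-KO 1 to 3.

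Mertk, a receptor by which astrocytes and microglia engulf debris, was at 31.9 to 34.7 TPM in controls and at 26.5, 28.2 and 27.1 TPM in SMRT-KO, a difference of -0.27 ± 0.06 with no overlap. The 16 microglia markers had a median of 0.02 and the 17 astrocyte markers, a list that holds Mertk, one of -0.03. Both medians changed sign with 1 library left out, to -0.04 for microglia without SMRT-KO 2 and to 0.05 for astrocytes without SMRT-KO 1. Rasgrf2, an exchange factor for Ras downstream of calcium, differed by -0.37 ± 0.09, Garnl3, a Rap GTPase-activating-like protein, by -0.51 ± 0.13, and Slc16a11, a monocarboxylate transporter, by -0.44 ± 0.11. Dzip1l, a protein of the primary cilium, differed by -0.28 ± 0.07. Ovgp1 (-0.37 ± 0.09), Zfp932 (-0.20 ± 0.05), Armcx4 (-0.36 ± 0.09) and Rgag1 (-0.55 ± 0.14) completed the set. Rgag1 was low throughout, at 1.70 to 2.54 TPM in controls and 1.06 to 1.31 TPM in SMRT-KO. Rn45s, the ribosomal RNA precursor, took 1.87% to 3.28% of TPM in controls and 0.953% to 1.55% in SMRT-KO, with a difference of -1.09 ± 0.25. It differed from control by -0.93 ± 0.25 in NCoR1-KO. In amygdala, SMRT-KO differed from its own controls in the other direction for Rn45s, by 0.57 ± 0.22, and the groups overlapped. The cause of these Rn45s differences was not tested. Of the largest non-overlapping differences below control, Dlk1, an imprinted Notch-like ligand, was at 2.40, 14.3, 4.46 and 8.38 TPM in controls and at 1.62, 2.13 and 2.31 TPM in SMRT-KO, a difference of -1.26 ± 0.48. Control 1 lay only just above SMRT-KO 3 for that gene.

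Long transcripts lay below control as a class. Of 790 genes with a transcript over 8 kb, 677 (85.7%) were below control, against 56% of all genes, with a median of -0.19. The set was chosen after values had been seen. The scores of the set were 0.16, 0.12, -0.02 and 0.09 in controls 1 to 4 and 0.13, -0.13 and -0.31 in SMRT-KO 1 to 3, so SMRT-KO 1 lay with the controls. Genes with a transcript under 1 kb were below control in 49.4% of 714 cases. Named genes in the long class were Grin2b, an NMDA receptor subunit, Scn3a, an early sodium channel, and Reln. Grin2b was at 104, 55.9, 26.2 and 40.2 TPM in controls 1 to 4 and at 46.7, 17.5 and 20.1 TPM in SMRT-KO 1 to 3 (difference -0.94 ± 0.44), an overlap of the groups. Scn3a was at 25.4 to 32.0 TPM in controls and at 27.4, 18.5 and 15.0 TPM in SMRT-KO, a difference of -0.51 ± 0.17 that was -0.32 without SMRT-KO 3. For Grin2b and Scn3a, SMRT-KO 1 lay inside the control range and SMRT-KO 2 and 3 below it, as they did in the score for long transcripts. The part of transcript length in these differences was not tested. With libraries weighted for quality the differences were -0.15 for Grin2b, -0.11 for Scn3a and -0.40 for Reln.

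Sterol synthesis genes lay above control in every tested case. The pathway runs from acetyl-CoA through mevalonate and squalene to cholesterol, and its genes are switched on together by SREBP2 when membrane sterol is low. All 23 tested genes had a mean above control, against 44% of all genes, with a median of 0.25 and a range of 0.06 to 0.46. At an unadjusted p under 0.05 were 7 (against 2.13% of all genes), and 1, Dhcr7, had no overlap between the groups. Hmgcs1, which makes HMG-CoA, was at 420, 403, 493 and 623 TPM in controls 1 to 4 and at 623, 727 and 540 TPM in SMRT-KO 1 to 3, a difference of 0.39 ± 0.15. Control 4 lay above SMRT-KO 3 and level with SMRT-KO 1. Sqle, squalene epoxidase, was at 85.6 to 110 TPM in controls and at 115, 124 and 109 TPM in SMRT-KO (difference 0.26 ± 0.09). Dhcr7, the last step to cholesterol, was at 38.4 to 47.1 TPM in controls and at 50.6, 57.6 and 49.6 TPM in SMRT-KO, a difference of 0.29 ± 0.08. Insig1, a feedback inhibitor of the pathway, differed by 0.46 ± 0.18 and Mvd, a mevalonate pathway decarboxylase, by 0.41 ± 0.17 (0.23 without SMRT-KO 2). Srebf2, which encodes SREBP2, differed by 0.06 ± 0.05.

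The sterol scores followed the oligodendrocyte scores across libraries. They were -0.17, -0.23, -0.05 and 0.14 in controls 1 to 4 and 0.16, 0.41 and -0.02 in SMRT-KO 1 to 3, and the oligodendrocyte scores were -0.48, -0.28, -0.27 and 0.37 in controls and 0.41, 0.88 and -0.62 in SMRT-KO. SMRT-KO 3, with the lowest oligodendrocyte score, still had a sterol score above those of controls 1, 2 and 3. Without SMRT-KO 2 the sterol median was 0.14 with 20 of 23 above control, and without SMRT-KO 2, control 1 and control 2 it was 0.04 with 14 above. All 18 oligodendrocyte markers lay above control as well, with a median of 0.40, and 0 of 18 were at an unadjusted p under 0.05. Mbp, the myelin basic protein gene, was at 5010, 5775, 6400 and 9336 TPM in controls 1 to 4 and at 9705, 13642 and 4677 TPM in SMRT-KO 1 to 3 (difference 0.40 ± 0.33). The highest and the lowest library were both SMRT-KO. Without SMRT-KO 2 the oligodendrocyte median was 0.07, and without SMRT-KO 3 it was 0.82. Without SMRT-KO 2, control 1 and control 2 it was -0.15, with 0 of 18 above control. In NCoR1-KO, against all 4 controls, the median was 0.15 with 18 of 18 above. The part of oligodendrocyte RNA in the sterol differences was not tested.

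Interferon response genes lay mostly below control. These genes are induced by interferons and encode antiviral and antigen-presentation proteins. Of 27 tested, 2 were above control (Psmb9 and Stat2) and 25 below, against 56% of all genes, with a median of -0.37. At an unadjusted p under 0.05 there were 6, all lower (against 3.48% of all genes), and 3 had no overlap between the groups. Isg15, a ubiquitin-like antiviral modifier, was at 7.73, 5.04, 4.82 and 2.81 TPM in controls 1 to 4 and at 1.51, 2.46 and 1.77 TPM in SMRT-KO 1 to 3, a difference of -1.02 ± 0.30. Ifit3, which binds antiviral RNA complexes, was at 20.4, 8.64, 11.7 and 8.83 TPM in controls and at 5.23, 8.71 and 5.58 TPM in SMRT-KO, a difference of -0.78 ± 0.30. Ifit1, a sensor of foreign RNA caps, was at 6.39, 2.36, 3.05 and 1.94 TPM in controls and at 1.42, 2.02 and 1.63 TPM in SMRT-KO, a difference of -0.63 ± 0.28 that was -0.35 without control 1. Control 1 was the highest library for all 3, and only Isg15 had no overlap. Irf7, a transcription factor that amplifies the response, differed by -0.70 ± 0.24, Tap1, a peptide transporter for antigen presentation, by -0.37 ± 0.16, and Trim30a by -0.34 ± 0.15 (-0.21 without SMRT-KO 3). Without control 1 the list's median was -0.25, still with 25 of 27 below control, and without SMRT-KO 3 it was -0.22 with 24 below. In NCoR1-KO, against the same controls, the median was -0.21 with 22 of 27 below. Levels of most of these genes were a few TPM, so the pseudocount bears on their size: the median was -0.20 with a pseudocount of 5 and -0.48 with 0.1.

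The promoters of these genes were read because most members of each list lay on the same side of control, although none passed the test. Windows of 250 bases before the start were taken from RefSeq (GRCm38.p6) and searched on both strands for GAAANNGAA, the core of the interferon-stimulated response element (ISRE), and for TCACNCCAC, a form of the sterol regulatory element (SRE). The ISRE core was in 11 of 24 interferon genes with a window (45.8%), against 7.31% of 10658 tested genes with a window. The SRE form was in 1 of 16 sterol genes, Hmgcs1, against 1.25% of tested genes. A match is a description of these letters, not a binding site. The interferon list was written from genes known to be induced by interferons. Its share of ISRE cores therefore describes the list and does not bear on SMRT-KO. Stat2, which lay above control, was among the genes with a match. Shown 5′ to 3′ on the gene's strand, with the matched letters of either strand in capitals, are the windows of Isg15 (chr4:156200819-156201068, minus strand), Ifit3 (chr19:34583279-34583528, plus strand), Ifit1 (chr19:34640639-34640888, plus strand) and, for sterol synthesis, Hmgcs1 (chr13:119690101-119690350, plus strand).
Isg15: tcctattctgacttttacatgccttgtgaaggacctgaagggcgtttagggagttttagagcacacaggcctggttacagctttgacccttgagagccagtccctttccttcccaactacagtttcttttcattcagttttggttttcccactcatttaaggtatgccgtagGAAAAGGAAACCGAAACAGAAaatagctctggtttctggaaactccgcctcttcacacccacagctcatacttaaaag
Ifit3: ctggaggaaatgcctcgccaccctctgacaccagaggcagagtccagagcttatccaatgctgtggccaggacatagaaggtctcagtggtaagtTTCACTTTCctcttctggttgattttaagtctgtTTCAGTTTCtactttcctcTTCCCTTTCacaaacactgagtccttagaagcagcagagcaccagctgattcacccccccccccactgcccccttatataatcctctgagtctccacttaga
Ifit1: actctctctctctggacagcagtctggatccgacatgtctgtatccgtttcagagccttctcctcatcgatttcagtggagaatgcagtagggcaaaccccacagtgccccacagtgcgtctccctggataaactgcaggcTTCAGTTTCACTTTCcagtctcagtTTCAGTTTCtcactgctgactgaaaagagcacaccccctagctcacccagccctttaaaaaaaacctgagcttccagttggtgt
Hmgcs1: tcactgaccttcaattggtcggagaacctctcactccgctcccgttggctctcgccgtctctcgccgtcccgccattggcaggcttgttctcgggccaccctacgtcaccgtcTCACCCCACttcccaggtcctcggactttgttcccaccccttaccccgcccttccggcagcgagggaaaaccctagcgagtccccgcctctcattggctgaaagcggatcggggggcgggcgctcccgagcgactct

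In Isg15 the 3 matches overlap and begin 78, 72 and 66 bases before the start. Ifit3 has 3 matches, 155, 121 and 102 bases before the start, and Ifit1 also has 3, at 109, 103 and 84, those at 109 and 103 overlapping. The match in Hmgcs1 begins 137 bases before the start. For Isg15 and Ifit1 the bases just after the window were found in a GENCODE transcript of the gene. For Hmgcs1 and Ifit3 they were not, so the distances for these genes hold only for the RefSeq start. Isg15, whose groups did not overlap, and Ifit3 and Ifit1, whose groups did, thus carry the same number of matches.

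**Figure D4:**
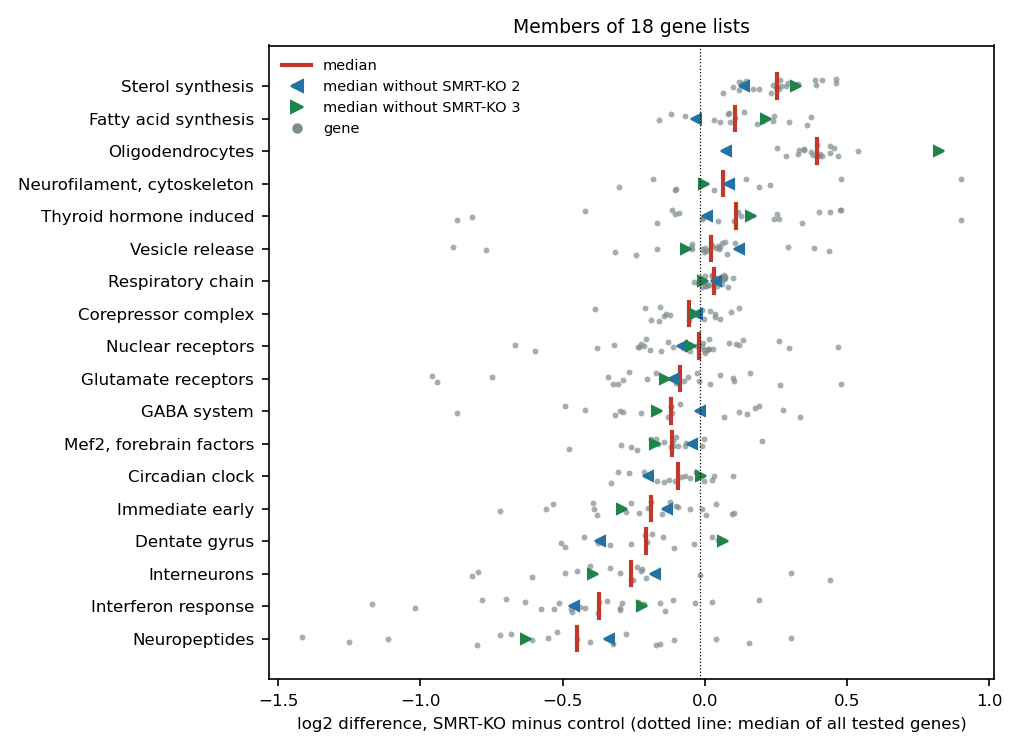
Difference in log2(TPM + 1), SMRT-KO minus control, for each tested gene (grey points) of 18 gene lists, with the median of the list (red bar) and its median without SMRT-KO 2 (blue) and without SMRT-KO 3 (green); the dotted line is the median of all 14501 genes at -0.02. Every sterol synthesis gene lies to the right of 0, the oligodendrocyte median moves from 0.40 to 0.07 and 0.82 with the library left out, and the interferon median stays between -0.46 and -0.22.

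Metabolic and activity-related lists gave smaller displacements. Of 17 fatty acid synthesis genes 14 lay above control, with a median of 0.11 that was -0.03 without SMRT-KO 2. Nuclear-encoded respiratory chain genes had 22 of 30 above control with a median of 0.03, and without SMRT-KO 3 they had 17 of 30 below with a median of -0.01. Clock genes had 13 of 16 below control with a median of -0.09, which was -0.20 (16 of 16 below) without SMRT-KO 2 and -0.01 (9 of 16 below) without SMRT-KO 3. Among them were Per1, a negative arm gene, at -0.27 ± 0.12 (-0.16 without control 2), and Arntl, the positive arm gene that encodes BMAL1, at -0.17 ± 0.08. Immediate early genes, which neurons transcribe within minutes of firing, had 17 of 21 below control with a median of -0.19. Control 2 had the highest immediate early score among the 7 libraries at 0.38, with Fos at 40.2 TPM against 8.76 to 15.5 TPM in the other 6, and without it the median was -0.07. Without SMRT-KO 2, control 1 and control 2 the list had 15 of 21 above control with a median of 0.05. Dentate gyrus markers had 12 of 14 below control with a median of -0.21, and without SMRT-KO 3 they had 9 of 14 above with a median of 0.06. Calb1, a calcium buffer of granule and CA1 cells, was at 107, 113, 117 and 87.0 TPM in controls 1 to 4 and at 88.3, 74.3 and 73.3 TPM in SMRT-KO 1 to 3, a difference of -0.42 ± 0.12.

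No gene passed in the direct comparison of SMRT-KO with NCoR1-KO in hippocampus. Of 14501 genes, 0 (0%) had a limma adjusted p under 0.05, the smallest was 0.420, and 956 (6.59%) had an unadjusted p under 0.05. Without control 2, which enters that contrast only through the spread, 1 gene passed, a predicted gene that the naming rule leaves out. The named genes were chosen on the same 3 SMRT-KO libraries that enter this contrast, so their values here are a description. Bok differed between the knockouts by 0.64 ± 0.13, Nefm by 0.39 ± 0.09, Acyp2 by 0.36 ± 0.07 and Zfp932 by -0.30 ± 0.05. For Garnl3 and Snap25 the knockouts differed by 0.02 ± 0.14 and 0.03 ± 0.13. Arntl was at -0.17 ± 0.08 in SMRT-KO and 0.27 ± 0.08 in NCoR1-KO, each against the shared controls, and differed between the knockouts by -0.44 ± 0.08.

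Amygdala, from the same series and with its own 4 controls and 3 SMRT-KO libraries, had 16 of 14606 genes past the threshold (0.11%). There 42% of genes lay above control and 58% below. Of the 12 hippocampus genes above control with smallest p, 11 lay above control in amygdala and 6 had every SMRT-KO library above every control there, against 5.85% of all amygdala genes. Of the 12 below control 9 lay below and 5 had every SMRT-KO library below every control, against 12.2%. In amygdala 3208 of 14606 genes had an unadjusted p under 0.05. Among the hippocampus genes of smallest p in either direction, only Snap25, with the Cre driver in its locus, passed in amygdala. Pvalb differed by 1.39 ± 0.31 in amygdala, from 14.6 to 29.9 TPM in controls to 36.1, 101 and 60.8 TPM in SMRT-KO 1 to 3. Syt2 differed by 1.62 ± 0.42 and Kcng4 by 1.01 ± 0.25. Nefm, at 115 to 168 TPM in amygdala controls and 173, 288 and 205 TPM in SMRT-KO, differed by 0.74 ± 0.17 with no overlap, and Nefh by 0.68 ± 0.19. These 5 genes, named for small p-values above control in hippocampus, did not pass in amygdala (limma's adjusted p of 0.061 to 0.091). Amygdala SMRT-KO 2 was the highest library for all 5. In that library the cortex layer marker Lamp5 was at 274 TPM (99.0 to 131 TPM in controls). The hypothalamus marker Hap1 was at 112 TPM there (255 to 426 TPM in controls). In the lists that hold Nefm, Nefh and Pvalb, 6 of 12 neurofilament and cytoskeleton genes lay above control there (median -0.01) and 8 of 17 interneuron genes (median -0.02). The 17 markers of cortex layers had 11 above control in amygdala and a median of 0.32. All 12 striatum markers lay above control there, with a median of 0.94, and so did all 18 oligodendrocyte markers, with a median of 0.83. The part of such marker differences in the amygdala values was not tested. Sterol genes had 17 of 23 above control in amygdala with a median of 0.07, and interferon genes 11 of 27 above with a median of -0.02. Mef2c was at 0.31 ± 0.14 in amygdala, against -0.48 ± 0.10 in hippocampus.

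**Figure D5:**
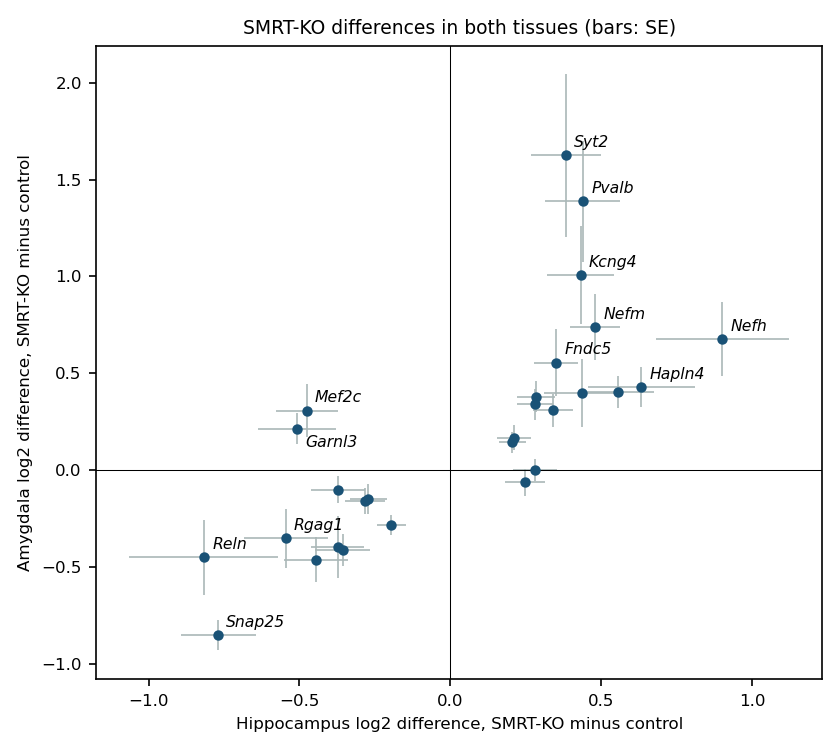
Difference in log2(TPM + 1), SMRT-KO minus control, in hippocampus (horizontal axis) and amygdala (vertical axis) for the named genes of smallest p other than Rn45s and for Pvalb, Syt2, Vamp1, Hapln4 and Reln; bars are standard errors of the limma fits, with 3 SMRT-KO and 4 control libraries in each tissue. Snap25 lies at -0.77 and -0.85, Pvalb at 0.44 and 1.39, and Mef2c and Garnl3 lie below 0 in hippocampus and above 0 in amygdala.

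A fit to the 20 libraries together tested the difference between the tissues in 14210 genes. Libraries of the tissues were taken as unpaired. Whether hippocampus and amygdala libraries came from the same mice was not checked, so agreement between the tissues may not be independent. No gene passed (0%), the smallest adjusted p was 0.120, and 1257 had an unadjusted p under 0.05. With the replicate number as a block, limma again called 0 genes (smallest adjusted p 0.271). Without hippocampus SMRT-KO 1 there were 17 calls, without amygdala control 3 there were 3 (Kcnh5, Kctd16 and Tle4) and without amygdala SMRT-KO 1 there was 1 (Klf9), genes named after their values were seen. Mef2c differed between tissues by -0.78 (adjusted p = 0.27, limma) and Pvalb by -0.95 (adjusted p = 0.47, limma). A difference between the tissues was not shown for either gene.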

How the data were processed

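The mRNA sequencing values were taken from tables of gene-level TPM that the authors deposited, 1 table per tissue with 23412 symbols each. Per the labels' protocols, a stranded mRNA kit (TruSeq) was used. The submitters' processing notes list RSEM 1.3.3, STAR 2.5.3a, fastp 0.21.0 and bcl2fastq and the build mm10, without roles or order. All columns matched labelled samples (0 columns of other samples were found). The levels of the transcript targeted in SMRT-KO and of some list members are not reported here, so the labels were not checked against the former.

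The tests used limma 3.58.1 in R 4.3.3 on log2(TPM + 1) values (variance trend, 3 genotype groups, 10 libraries). P-values were adjusted by Benjamini-Hochberg over all tested genes, with 0.05 as the threshold. The script was tested on simulated data. Replicate numbers were not used to pair the samples. Same-number correlations of deviations were 0.06, 0.12 and 0.50 between SMRT-KO and control, and 0.50 was the highest between any libraries of these groups. Same-number correlations ran from -0.46 to 0.01 between NCoR1-KO and control and from -0.49 to -0.13 between NCoR1-KO and SMRT-KO. These values do not settle whether equal numbers mark paired samples.

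The 40 gene lists (693 symbols, 659 tested) and the comparison itself were chosen with earlier results of these data known, so lists were counted and not tested. Genes were named by a rule: Snap25, Ncor1 and Rn45s, the 12 of smallest p per direction, the 4 largest non-overlapping differences per direction, and up to 4 or 8 members of smallest p per list; predicted and sex-linked genes were not named. Members named beside these to show a pathway's usual parts (among them Hdac3, Tbl1xr1, Klf9, Hr, Thra, Mbp, Srebf2, Sst, Fos, Prox1, Dio3) were added after their values were seen. Positions and transcript lengths are from GENCODE M21 (GRCm38, the assembly of mm10), which matched 13569 tested symbols, and promoters from RefSeq (GRCm38.p6). Alternatives covered pseudocounts of 0.1 and 5, filters, scalings, variance models, the replicate block and each library left out.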

Additional observations from a re-analysis of the deposited data

Results flagged for a closer look

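Among 141 named genes and 40 list scores, 5 genes had 1 control library far from the other 3, by Dixon's ratio of the gap to the range, above its 95% critical value for 4 values. Chance alone gives about 1 in 20 such groups. Pvalb was at 44.0 TPM in control 2 and 55.4 to 57.3 TPM in the others (ratio 0.872), so the low control raised the SMRT-KO difference. Sc5d, a sterol synthesis gene, was at 107 TPM in control 4 against 84.8 to 87.1 TPM (0.883), and Bcas1, an oligodendrocyte lineage gene, was at 275 TPM in the same library against 168 to 170 TPM (0.975). Control 4 had the highest oligodendrocyte score of the controls, 0.37. Gabrg3, a GABA receptor subunit, was at 4.06 TPM in control 3 against 9.90 to 10.6 TPM (0.929), and Atp5o, an ATP synthase subunit, at 547 TPM in control 3 against 496 to 498 TPM (0.956).

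Garnl3 lay below every control in all 3 hippocampus SMRT-KO libraries and above every control in all 3 amygdala SMRT-KO libraries. The difference between tissues was -0.72 on the log2 scale and did not pass in the joint fit (limma's adjusted p = 0.25).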

How the results depend on the processing

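The count of genes past the threshold, 0 for SMRT-KO against control, became 1 (Snap25) after quantile normalization, 1 with quality weights, and 0 to 1 when a library was left out (1 without SMRT-KO 3). It was 0 with the replicate block (smallest adjusted p 0.607) and under the other settings. Against NCoR1-KO it was 0 to 1 with a library left out. For the tissue difference it was 0 to 17. Of 141 named genes, 16 changed direction under at least 1 of 23 alternatives and the others under none. Ncor1 turned to 0.00 (-0.0012) with the total without Rn45s and ran from -0.14 to 0.12 with a library left out, also in the exact test. With quality weights Thrb turned to 0.0074, Gabrg3 to 0.021 and Ccdc153 to 0.23. With a library left out, Bcas1 ran from -0.0022 to 0.69, Tcf7l2 from -0.083 to 1.79, Tmem212 from -1.73 to 0.25 and Ccdc153 from -1.39 to 0.40. Leaving out SMRT-KO 2, control 1 and control 2 together, a setting chosen after seeing the data, gave Ncor1 -0.15, Kcnj10 -0.025, Rdh11 -0.038, Scg2 0.027, Nr4a2 0.051, Trf -0.0021, Myrf -0.089, Olig1 -0.079, Bcas1 -0.18, Itgam -0.0057, Tnnt1 -0.15 and Tcf7l2 -0.17. List medians moved by more than the spread of their score under some alternative in 17 of 40 lists. The cause of each change was not tested. Depth is unknown, so its limit on low genes cannot be stated.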
